A study of Arabidopsis thaliana with 44 samples.

Results

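Silique was compared directly with flower, the organ from which it develops. The fruit of Arabidopsis thaliana is called a silique. For gene expression the members were the 2 input poly(A) RNA libraries of each organ, 4 of 44 libraries in the series. For RNA methylation they were 132341 of 188282 listed m6A sites, namely those covered by at least 20 reads in silique and in flower. N6-methyladenosine (m6A) is a methyl mark on adenosines of mRNA.

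All plants behind these libraries were of the Col-0 ecotype, grown at 22 °C under long days, and both organs were harvested after flowering began. No treatment separated the groups, and neither an age nor a stage was given for flower or silique. The labels only number the replicates, and the study's text calls them biological. The other 7 tissues of the series' wild type survey were profiled in the same way and are used here only for reference. Each organ also had 2 libraries treated with MjDim1, the enzyme that tags m6A for m6A-SAC-seq, from which the methylation values came.

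As background, a flower holds sepals, petals, stamens with pollen, nectaries and the carpels. After fertilisation the outer organs wither, the carpels grow into the silique and the ovules within become seeds with an embryo, an endosperm and a seed coat. Transcription factors of the MADS-box family specify the floral organs, and LEC1, ABI3, FUS3 and LEC2 direct the later filling of the embryo with storage protein and oil. The mark m6A is written by a methyltransferase complex around MTA, removed by ALKBH proteins and bound by ECT proteins, and in plants it is concentrated near the stop codon and in the 3'UTR.

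The silique input libraries held 5204160 and 5594628 counts and the flower input libraries 4432820 and 3864820. Counts of the 2 replicates differed by little more than counting noise, with a chi-square per degree of freedom of 1.12 in silique and 1.09 in flower, so the p-values below rest on a very small spread. Of 19264 genes that passed the filter on low counts, 12444 (64.6%) were called at an adjusted p of 0.05 (edgeR quasi-likelihood test, Benjamini-Hochberg adjustment). Of all genes tested, 6374 (33.1%) rose and 6070 (31.5%) fell in silique. With a change of at least 2-fold also required, 3060 (15.9%) were higher and 2567 (13.3%) lower. These percentages are the background for each list of genes described below, and the median log2 fold change of all genes tested was 0.01. In whole organs, fewer cells of a type and less RNA per cell cannot be told apart. Levels are given as CPM, read counts scaled to a common library size with TMM factors, in libraries 1 and 2, and log2 fold changes (log2FC) are silique against flower ± SE.

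Defining markers were present in the organ that each label names. PI, which specifies petals and stamens, stood at 209 and 215 CPM in flower and at 2.67 and 3.61 CPM in silique, a log2FC of -6.06 ± 0.12. PI was an extreme member of the floral organ identity list, whose median log2FC was -0.43. Of its 10 tested genes 6 fell, 2 rose and 2 were not called. CRA1, which encodes the seed storage globulin cruciferin A, stood at 12482 and 11709 CPM in silique and at 0.213 and 2.69 CPM in flower. The groups did not overlap for PI or CRA1, as for 41.1% of all tested genes that were higher and 39.9% that were lower in silique.

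**Figure D1:**
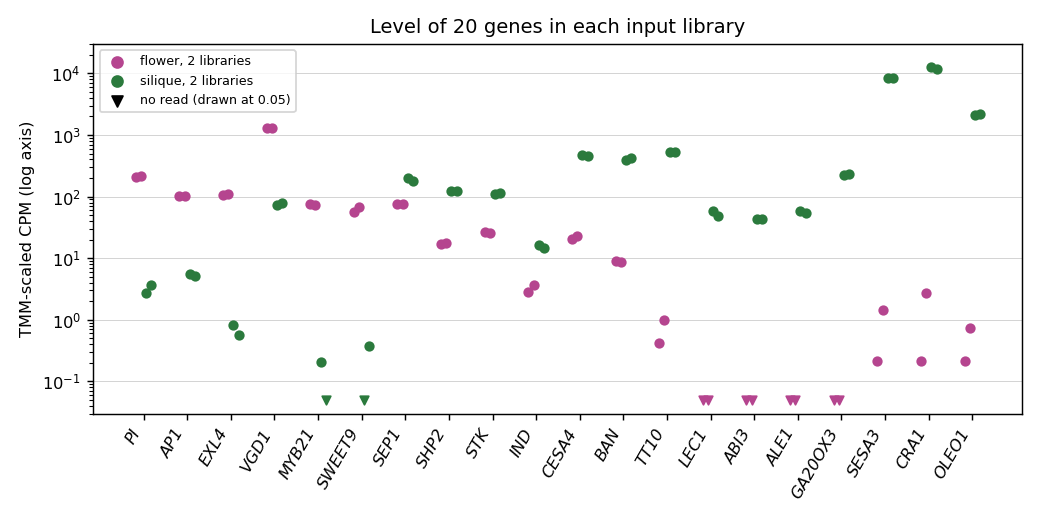
TMM-scaled CPM on a log axis for 20 genes in the 2 flower and the 2 silique input libraries. Each point is a library, triangles mark libraries with no read, and the organs do not overlap for any gene drawn.

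Genes for seed reserves rose together. All 19 tested members of the list of storage proteins, oil body proteins and late embryo genes rose, and the remaining member, EM6, was too low to test. Their median log2FC was 12.42, or 10.60 with the genes that had no flower read set at their lower bound. The list took 4.65% and 4.52% of the reads of the silique libraries and 0.00296% and 0.00331% of those of flower.

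Per unit of transcript length, SESA3, a 2S albumin, was the most abundant transcript of silique at 15164 TPM, a scale of read counts per transcript length, against 1.71 TPM in flower. Cruciferin C (AT4G28520, symbol CRC) reached 9230 TPM and CRA1 8938 TPM. SESA1, SESA2, SESA3 and SESA4 are neighbouring copies on chromosome 4, and how reads were divided among them was not tested. In flower, CRA1 had 1 read in library 1 and 11 in library 2, and cruciferin C had 2 and 8. Both had more reads in flower library 2, although that library was the shallower, whereas CRB, another cruciferin, had 3 reads in library 1 and 1 in library 2.

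Oil body proteins followed. OLEO1, an oleosin, stood at 2125 and 2153 CPM in silique and 0.213 and 0.733 CPM in flower, with a log2FC of 12.12 ± 0.11. CLO1, a caleosin, had no flower read and was at least 555-fold higher in silique, counting 3 reads over both flower libraries as the floor. TIP3;1, an aquaporin of the storage vacuole membrane, was at least 572-fold higher on the same floor. Genes of the last, desiccating phase were low: EM1 reached 5.35 and 4.56 CPM in silique and EM6 0.823 and 1.90 CPM. By contrast, the dehydrin gene RAB18 rose by a log2FC of 2.39 ± 0.17 from a measurable flower level of 7.24 and 7.57 CPM.

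Of the 12 regulators of seed maturation, 10 rose, 1 fell and 1 was not called. LEC1, a subunit of the CCAAT-binding factor that starts maturation, had 59.2 and 48.6 CPM in silique and no read in flower, which is at least 157-fold. ABI3, which carries the abscisic acid signal to storage genes, had 43.2 and 43.3 CPM in silique and again no flower read, at least 127-fold. FUS3 rose by a log2FC of 5.44 ± 0.26. WRI1, the activator of glycolytic and fatty acid genes, rose by 2.65 ± 0.12 on the log2 scale from 12.4 and 11.5 CPM in flower. ABI5 was the exception that fell, from 23.4 and 23.9 CPM in flower to 5.35 and 6.07 CPM in silique (log2FC -2.04 ± 0.20). BZIP53 was similar in level, with 87.2 and 83.9 CPM against 75.2 and 87.4 CPM, and its libraries overlapped.

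Endosperm and seed coat markers were higher in silique as well. All 8 tested endosperm genes rose, and 4 were too low to test. ALE1, a subtilisin-like protease made by the endosperm, had 58.0 and 54.7 CPM in silique and none in flower, at least 165-fold. SUC5, a sucrose transporter, rose from 7.88 and 7.33 CPM to 101 and 87.9 CPM. MEA, a Polycomb gene of the endosperm, rose from 1.07 and 0.733 CPM to 2.88 and 3.42 CPM (log2FC 1.77 ± 0.50), a call that DESeq2 did not make.

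In the seed coat list 15 of 16 genes rose. TT10, the laccase that oxidises seed coat flavonoids, stood at 539 and 529 CPM in silique and 0.426 and 0.977 CPM in flower, a log2FC of 9.56 ± 0.13. BAN, the anthocyanidin reductase of proanthocyanidin synthesis, rose by 5.52 ± 0.09. PER36, a peroxidase of the mucilage cells, had no flower read and was at least 262-fold higher. The mucilage genes SBT1.7 and MUM4 were already present in flower and rose by 2.80 ± 0.04 and 2.58 ± 0.06. MUM2, a beta-galactosidase of mucilage release, was the member not called, with 120 and 104 CPM in silique and 113 and 111 CPM in flower.

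All 9 tested genes of secondary cell wall formation rose, with a median log2FC of 3.26. CESA4, CESA7 and CESA8, the cellulose synthase subunits of the secondary wall, rose by 4.44 ± 0.07, 4.08 ± 0.08 and 3.73 ± 0.08. CESA4 went from 20.2 and 22.5 CPM in flower to 465 and 461 CPM in silique. IRX9, of xylan synthesis, rose by 4.66 ± 0.16, and the lignin laccase LAC4 by 2.80 ± 0.09. Summed over the list and with all 9 tissues scaled together, silique held 1247 CPM and stem 3419 CPM, so stem stayed the highest tissue.

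The carpel and fruit patterning list split, with 7 genes up, 5 down and 4 not called among 16 tested. SHP2, which specifies the valve margin with SHP1, rose from 17.3 and 17.6 CPM to 125 and 123 CPM (log2FC 2.83 ± 0.10), while SHP1 rose by only 0.59 ± 0.11. IND, the basic helix-loop-helix factor of the dehiscence zone, rose by 2.24 ± 0.26. STK, the ovule identity factor, rose by 2.09 ± 0.09. NST1, a master switch of secondary walls, rose by 2.74 ± 0.26, and its partner SND1 had 19.3 and 23.0 CPM in silique and no flower read, at least 62.2-fold. ADPG1, a polygalacturonase of pod opening, rose by 2.46 ± 0.16.

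The 5 that fell were CRABS CLAW, FUL, JAG, YAB3 and NTT, and RPL, ALC, SPT and FIL were not called. CRABS CLAW (AT1G69180), a YABBY factor of carpel and nectary, had 38.6 CPM in each flower library and no read in silique, at least 130-fold lower. FUL, which promotes valve growth, fell by 0.74 on the log2 scale ± 0.08. YAB3, a YABBY factor of lateral organs, fell from 32.2 and 33.2 CPM to 13.8 and 12.5 CPM. ALC, another valve margin factor, differed by less than the spread, with 44.4 and 40.1 CPM in silique and 44.1 and 39.6 CPM in flower.

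**Figure D2:**
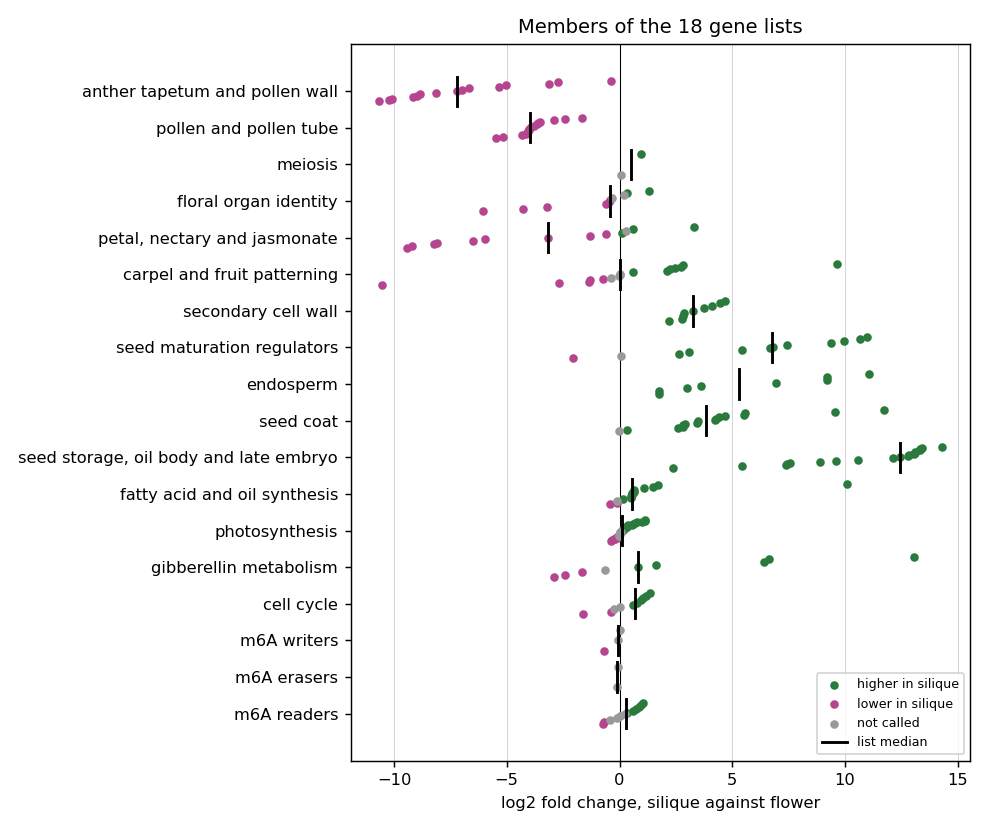
The log2 fold change of silique against flower for each tested member of the 18 gene lists, with points coloured by call and a bar at the list median. All called members of the tapetum and pollen lists lie left of 0, and all of the storage, endosperm, seed coat and secondary wall lists lie right of it.

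Among the floral organ identity genes, 2 rose and 6 fell of 10 tested. PI and AP1 fell most, AP1 from 103 CPM in each flower library to 5.55 and 5.12 CPM (log2FC -4.26 ± 0.13). AP3, the partner of PI in petals and stamens, remained at 77.1 and 67.8 CPM in silique against 95.2 and 96.2 CPM in flower, so the partners changed by very different amounts. AG, of stamens and carpels, fell by 0.59 on the log2 scale ± 0.14. The SEP cofactors diverged. SEP1 rose from 74.8 and 75.0 CPM to 197 and 179 CPM (log2FC 1.33 ± 0.07), SEP2 rose by 0.34 ± 0.05 and SEP3 fell by 0.46 on the log2 scale ± 0.06.

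Anther genes were the counterpart of the seed genes. All 15 tested tapetum and pollen wall genes fell, with a median log2FC of -7.22, or -5.36 at the bounds. A9 and ATA7, classical tapetum transcripts, had no read in silique and were at least 45.0-fold and 108-fold lower. EXL6, a pollen coat lipase, stood at 47.9 and 37.6 CPM in flower and at 0 in silique, at least 146-fold lower. QRT3, a pectin-degrading enzyme that frees pollen from the tetrad, changed least, from 20.7 and 23.2 CPM to 15.0 and 18.2 CPM (log2FC -0.39 ± 0.16). Its call was lost in DESeq2, without silique library 1 and without flower library 2.

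All 16 tested genes of pollen and the pollen tube also fell, with a median log2FC of -3.96. VGD1, a pectin methylesterase of the growing tube, went from 1274 and 1316 CPM to 72.8 and 77.6 CPM, a log2FC of -4.10 ± 0.05. PPME1, a related enzyme, fell by 4.05 on the log2 scale ± 0.10 and AGP6, an arabinogalactan protein, by 3.77 ± 0.08. Pollen transcripts stayed measurable in silique where many tapetum transcripts were at 0, but the tapetum list was also the lower in flower. The pollen list held 0.0149% and 0.0146% of silique reads, against 0.254% and 0.253% in flower. The tapetum list held 0.00231% and 0.00273% of silique reads, against 0.0532% and 0.0539% in flower. Whether the 2 groups differ in persistence was not tested.

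Petal, nectary and jasmonate genes fell in 9 of 13 cases and rose in 3. MYB21, a jasmonate-regulated factor of petal and stamen growth, went from 75.0 and 73.3 CPM to a single read in silique library 1. Its pooled ratio was 752 with a counting interval of 134 to 29734. MYB24, its relative, had no silique read and was at least 61.1-fold lower. SWEET9, the sucrose exporter of nectaries, had 55.4 and 66.7 CPM in flower and 2 reads in silique, a ratio of 307 with a counting interval of 84.6 to 2543. The floral terpene synthases TPS21 and TPS24 fell to 3 reads and 1 read. OPR3, of jasmonate synthesis, fell from 56.7 and 53.5 CPM to 24.7 and 20.3 CPM, while the lipoxygenase gene LOX3 rose by 0.59 ± 0.10 on the log2 scale. The small rise of LOX2, 0.12 ± 0.04, was lost without silique library 1 and without either flower library. It was also lost in DESeq2, with upper-quartile factors (log2FC 0.04) and in a fit of all 18 input libraries.

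Gibberellin genes changed by isoform. GA20OX3, a late biosynthetic oxidase, had 224 and 234 CPM in silique and no flower read, at least 670-fold. GA20OX1 fell from 2.98 and 4.88 CPM to 0.206 and 0.759 CPM. GA3OX1, GA3OX3 and GA3OX4, which make active gibberellin, rose, GA3OX1 by 1.63 ± 0.26 on the log2 scale. GA2OX2, which inactivates gibberellin, fell by 2.43 ± 0.13. Over the 7 other tissues GA20OX3 did not exceed 2.54 CPM, its level in seed.

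In fatty acid and oil synthesis 11 of 14 genes rose, 2 fell and 1 was not called, mostly by small amounts around a median log2FC of 0.55. FAE1, the elongase of very long chain seed fatty acids, stood apart with 155 and 151 CPM in silique and 1 flower read in all. The plastid genes KASI and SSI2 rose by 1.71 ± 0.06 and 1.48 ± 0.06. ROD1 fell by 0.43 on the log2 scale, and PKP1 had a log2FC of -0.10 ± 0.04 whose call was lost without either silique library and without flower library 1. The PKP1 call was also lost in DESeq2, in the treated libraries and in a fit of all 18 input libraries. Among the 30 photosynthesis genes 16 rose and 7 fell, with a median log2FC of 0.13 and a share of 6.51% and 6.38% of silique reads against 6.49% and 6.47% of flower reads. The Calvin cycle genes in the list all rose, RCA (Rubisco activase) by 1.00 ± 0.03 and GAPB by 1.11 ± 0.04, while the antenna genes LHCB1.3 and LHCA1 fell by 0.23 and 0.37 on the log2 scale.

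The cell cycle list had 6 genes up and 2 down of 10. DESeq2 did not call the rises of CDKB1;1 and CYCB1;4 or the fall of CDKB2;1. KN, the syntaxin of the cell plate, rose by 1.34 ± 0.09 and the replication clamp PCNA1 by 1.20 ± 0.16, whereas CYCD3;1 fell by 1.64 on the log2 scale ± 0.16. Meiosis genes were mostly below the filter, with 2 of 10 tested. DMC1, a meiotic recombinase, rose from 7.46 and 10.3 CPM to 19.7 and 14.6 CPM.

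Of the m6A pathway, 3 of 6 writer genes, 2 of 5 demethylase genes and all 12 reader genes of the lists were matched. MTB, VIR, HAKAI, ALKBH9A, ALKBH9C and ALKBH10A were not analysed here. The methyltransferase gene MTA had a log2FC of -0.09 ± 0.16, and the complex member FIP37 one of 0.02 ± 0.16, and neither was called. FIO1, a separate methyltransferase, fell by 0.70 on the log2 scale ± 0.25, a call lost in DESeq2 and without flower library 1. Neither of the demethylase genes tested, ALKBH9B and ALKBH10B, was called. Readers were divided: 6 of 12 rose, led by ECT6 at 1.02 ± 0.16, and 2 fell. The rises of ECT4 and ECT7 were not called in DESeq2, nor that of ECT7 with upper-quartile factors. ECT11, not called in the main fit, was called lower with upper-quartile factors and in the treated libraries. ECT2, a reader that acts in organ growth, fell from 311 and 307 CPM to 194 and 187 CPM (log2FC -0.70 ± 0.05).

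Beyond the lists, the largest calls included genes of unknown role. AT1G62225, AT1G62000 and AT1G62220, uncharacterised genes close together on chromosome 1, were among the 10 largest rises, and whether they share reads was not tested. AT1G62225 had 783 and 830 CPM in silique and no flower read, at least 2365-fold. EPR1, a proline-rich extensin, was at least 1511-fold higher and the cupin gene CRD at least 1289-fold. The remaining rises were AT4G36700, SESA2, AT1G47540, AT2G28490 and ENODL3. The largest falls were BGLU20, a beta-glucosidase family gene, at least 386-fold lower, AT3G12000, annotated as related to the S-locus, at least 239-fold, and the cytochrome P450 gene CYP76C3, at least 235-fold. APG, AT1G68875, MYB21, TPS10, AT5G22430, SWEET9 and GRP20 completed the 10.

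The other tissues showed how far these genes are shared. Of the 3060 genes called and at least 2-fold higher in silique, 48.2% were lower in all 7 other tissues than in silique, against 17.5% of all genes tested. Of the 2567 that were at least 2-fold lower, 51.2% were below the flower level in all 7, against 17.5% of all tested. Selection on these organs fixes part of that excess, so it is a description. Summed CPM of the storage list was 40504 in silique, 333595 in seed and 541 in seedling, and lower in the remaining tissues.

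The methylation comparison used 1 fraction per site and organ, pooled over replicates and calibrated by the authors with spiked-in probes. It therefore has no replicate spread and no test. At the 132341 sites the median fraction was 0.169 in silique and 0.138 in flower, and the median difference was 0.02. Silique was higher by at least 0.2 at 15254 sites (11.5%) and lower by that amount at 12040 (9.1%). Sites with the deposited mark of a call in silique only numbered 30830, in flower only 18232 and in both 29480. The largest group, 53799 sites, had a mark in neither organ. It is included in the values over all compared sites, and 4208 of its sites were higher by at least 0.2 and 3562 lower.

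Sites in coding sequence and in the 3'UTR differed in direction over all motifs together. In coding sequence the median was 0.139 in silique and 0.102 in flower over 80148 sites, with 10.3% higher by at least 0.2 and 4.81% lower. In the 3'UTR it was 0.315 and 0.339 over 46238 sites, with 13.6% higher and 16.7% lower. The mean difference was 0.04 in coding sequence and -0.0151 in the 3'UTR. The 5'UTR, with 3197 sites, had 12.6% higher and 6.23% lower. The median difference in the 3'UTR was 0. At sites with a mark in either organ the mean difference was 0.06 in coding sequence and -0.0257 in the 3'UTR, and with a mark in both 0.04 and -0.00354. The 3'UTR difference depended on the motif. Sites with central GAT had 3'UTR medians of 0.193 in silique and 0.183 in flower, and those with GAA or GAG 0.109 and 0.0776, whereas AAC sites had 0.476 and 0.525.

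**Figure D3:**
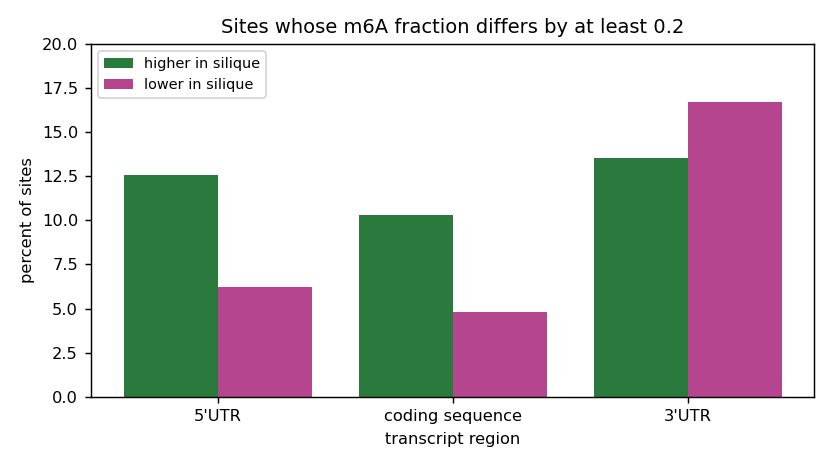
Percent of compared m6A sites whose fraction is higher or lower in silique than in flower by at least 0.2, for each transcript region. In coding sequence the higher share (10.3%) exceeds the lower (4.81%), and in the 3'UTR the lower share (16.7%) exceeds the higher (13.6%).

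The difference also varied with the motif class, named from the bases around the adenosine. The authors' class DRACH, the consensus of the methyltransferase complex, had a median difference of 0.01 over 51991 sites, -RAC- one of 0.02 over 11366, -GAU- one of 0.03 over 19625 and GGAU- one of 0.00 over 4198. The class of other motifs, with 45161 sites, had a median difference of 0.02, and 16.3% of its sites were higher by at least 0.2 and 11.9% lower. An excess in silique of similar size was also seen at motifs outside the consensus. In coding sequence the median difference was 0.035 at sites with central GAA or GAG, against 0.030 at those with central GAC. The mean differences there were 0.037 and 0.034. Sites with the central bases GAG had medians of 0.102 in silique and 0.0638 in flower, and those with GAA 0.110 and 0.0682. Such a low-level offset moved with the difference in coding sequence, and its part in that difference was not tested.

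The precision of a fraction depended on its motif. MjDim1 labels adenosines preceded by G better than those preceded by A, per the study's calibration. The SD of the difference over sites was 0.134 for GAC and 0.326 for AAC. Fractions of exactly 0 or 1 made up 7.16% of silique values at GAC sites and 29.6% at AAC sites. At depth of at least 100 in both organs and with a mark in either, 35 sites rose from 0 to 1 and 29 fell from 1 to 0, so single sites could not be ranked over all motifs. Sites with central GAC were therefore used for single sites, a choice made after the values were seen.

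GAC sites kept the contrast of regions. In coding sequence 8.01% of 33855 sites were higher by at least 0.2 and 3.24% lower, and in the 3'UTR 5.90% of 9464 were higher and 8.64% lower. The difference varied with the distance from the stop codon. In the last 100 bases of coding sequence the medians were 0.157 in silique and 0.132 in flower. In the first 50 bases after the stop codon they were 0.238 and 0.237, and from 50 to 100 bases 0.481 and 0.508. From 100 to 150 bases after the stop codon 4.67% of sites were higher and 9.33% lower. From 150 to 200 bases the shares were 7.28% and 7.85%, and from 250 to 300 bases silique was the higher, with medians of 0.559 and 0.525. The median difference was 0 in each bin after the stop codon.

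**Figure D4:**
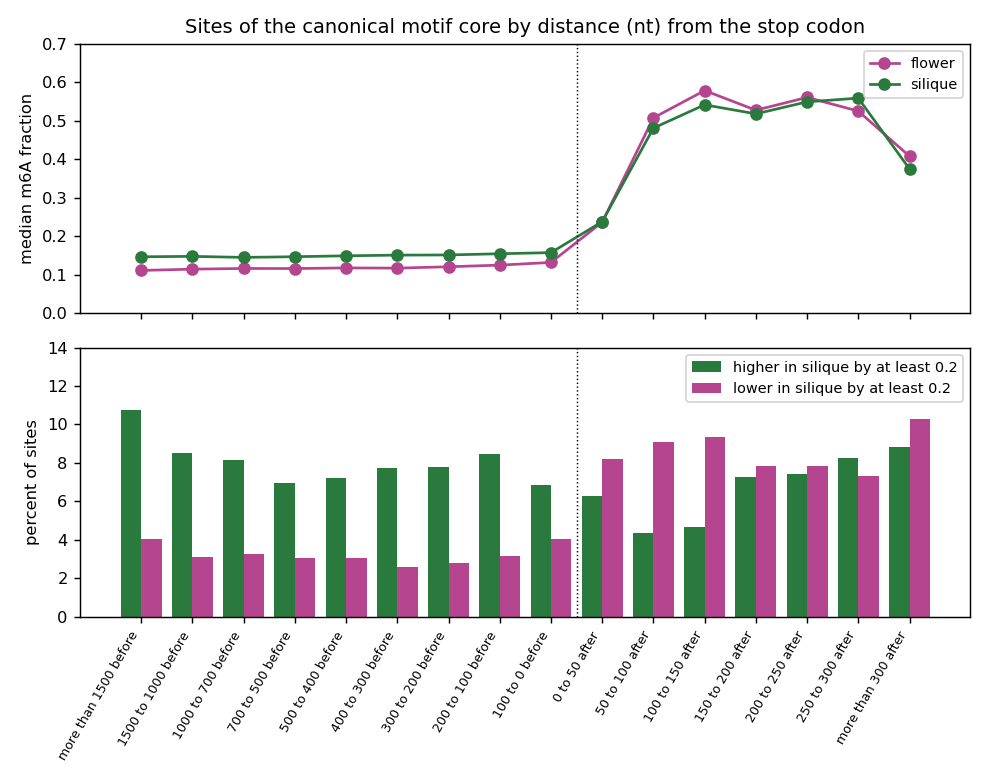
GAC sites in bins of distance from the stop codon (dotted line), with the median m6A fraction in each organ above and the percent of sites that differ by at least 0.2 below. Silique lies above flower in each bin before the stop codon, and in the bin from 100 to 150 bases after the stop codon it lies below (0.542 against 0.579).

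With depth of at least 100 in both organs and a mark in either, 10193 GAC sites remained, of which 202 (1.98%) were higher by at least 0.2 and 89 (0.873%) lower. Of the 202 higher sites 165 lay in coding sequence and 30 in the 3'UTR. Of the 89 lower sites 17 lay in coding sequence and 70 in the 3'UTR. AGACA was the motif of 158 of the 202 higher sites (78.2%), of 32 of the 89 lower ones (36.0%) and of 27.0% of all 10193. Over the compared sites in coding sequence, AGACA had 16.8% higher and 6.91% lower, whereas AGACT had 1.68% and 0.690%. In the 3'UTR, AGACA had 9.99% higher and 10.9% lower, and AGACT 2.89% and 7.42%. AGACA thus had more large differences in both directions.

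Sequences around some of the sites with large differences are printed below, chosen after their values were seen for their regions and for a pair of related genes, with the 5-base motif in capitals and its central A the measured adenosine. They are the RNA strand in DNA letters, read from the TAIR10.1 reference of RefSeq. At 187877 sites checked, the genome gave the listed motif. The first set shows sites that were higher in silique.
SKD1: gttcatgaAGACAatgctggg
EML3: gaagcaaaAGACAtcacaatc
BIO2: catgttcaAGACAttaggcct
RAB8C: atcgcaaaAGACAtaaaacaa
RAB8: attgctaaAGACAttaagcaa
The second set shows sites that were lower in silique.
GLN1.3: tattgttgTGACAttttgtgt
HSP81-3: gggtgttgAGACAttggttat
BI1: tggtgaccAGACAtgtttcca
IIL1: tcgctgttGGACTtgatagtt

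Among the higher sites, the adenosine at chr2:11781284 in the coding sequence of SKD1, an AAA ATPase of vesicle sorting, rose from 0.365 in flower (154 reads) to 0.796 in silique (158 reads). The other 7 tissues ranged from 0.253 to 0.742, all below silique. EML3 (chr5:4131338, coding sequence), a chromatin reader with a Tudor-like domain, rose from 0.133 to 0.562, and its highest value elsewhere was 0.342. BIO2 (chr2:18011007), the biotin synthase gene, rose from 0.125 to 0.485, 89 bases before the stop codon. Seedling, at 0.507, was higher still.

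The related GTPase genes RAB8C and RAB8 carried a site at the same place, 124 bases before the stop codon. RAB8C (chr5:884932) went from 0.427 to 0.767 and RAB8 (chr3:19876780) from 0.262 to 0.591. The core of their windows is alike, as printed above, and reads of similar genes may be divided between them.

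The lower sites lay in the 3'UTR. GLN1.3, a cytosolic glutamine synthetase gene, fell from 0.805 to 0.337 at chr3:6099518, 110 bases after the stop codon, with 0.491 to 0.761 in the 6 other tissues covered. HSP81-3, of the cytosolic HSP90 chaperones, fell from 0.913 to 0.486 at chr5:22683952, 41 bases after the stop codon, with 250 reads in flower and 853 in silique, while 1 tissue was lower than silique and 1 higher than flower. BI1, a suppressor of cell death, fell from 0.776 to 0.371 at chr5:19137676, and all 7 other tissues lay between, from 0.405 to 0.652. IIL1 (chr4:7804082), of leucine synthesis, fell from 0.972 to 0.552. There the 7 other tissues ranged from 0.437 to 0.830, all below flower and 4 of them below silique, so flower was the outlying organ.

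**Figure D5:**
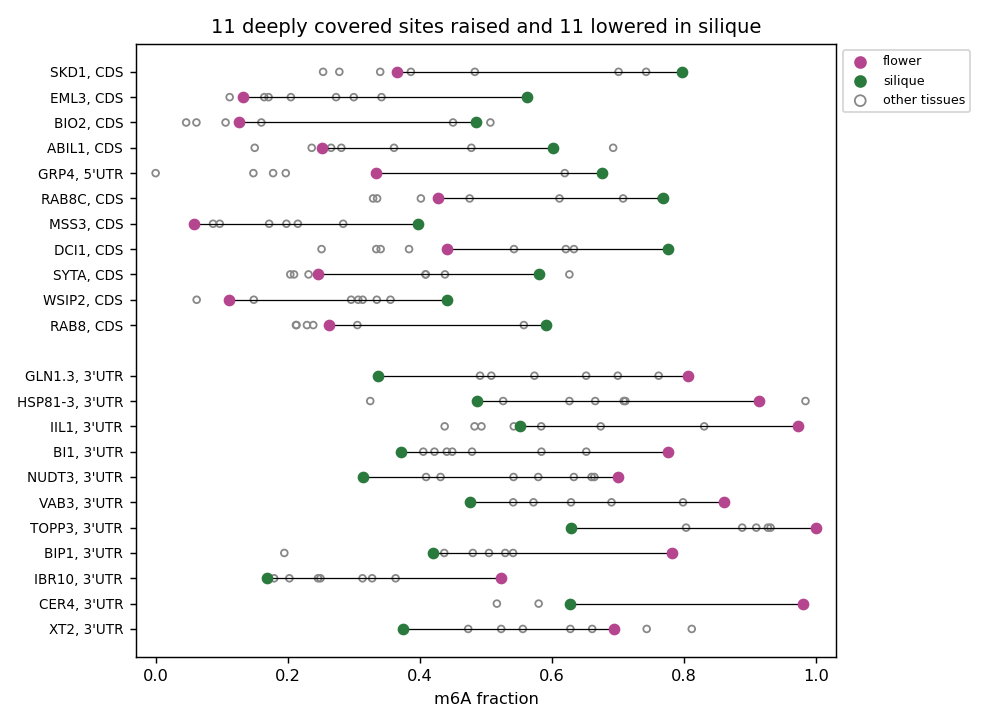
m6A fraction at 11 of the largest rises and 11 of the largest falls among GAC sites of named genes with at least 100 reads in both organs, with the other tissues covered by at least 20 reads as open circles. Of the 11 rises, 10 lie in coding sequence and the remaining one, in GRP4, in the 5'UTR, while the 11 falls lie in the 3'UTR.

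Single GAC sites also differed in some list members. The examples were chosen after their values were seen and are all rises at coding AGACA sites. Of all compared AGACA sites in coding sequence, 16.8% were higher by at least 0.2 and 6.91% lower. Other list members had a lower mean over their GAC sites, such as OPR3 (-0.16 over 5 sites), LAC17 (-0.13 over 6) and ECT9 (-0.12 over 4). CDKB2;1, a mitotic kinase gene, rose from 0.136 to 0.544 at a coding AGACA (chr1:28721385, 110 and 68 reads). TTG1, the WD40 regulator of seed coat pigment, rose from 0.194 to 0.459 at a coding AGACA. Its mean difference over all 14 compared sites was -0.01. The demethylase gene ALKBH10B was higher at a pair of coding AGACA sites, from 0.149 to 0.359 and from 0.213 to 0.453.

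Few sites of storage and tapetum transcripts could be compared, since most were covered in 1 organ. In the storage list 104 sites had at least 20 reads in silique only, and 16 in both. The sequences of 3 deeply covered AGACA sites are shown because they lie in storage protein transcripts that were near 0 in flower.
SESA2: aatttacaAGACAgctaagta
SESA1: aatttaccAGACAgccaagca
Cruciferin C: cacctctaAGACAgccctacg
SESA2 (chr4:13609819) had a fraction of 0.417 in silique over 14502 reads and 0.461 in seed. SESA1 (chr4:13607771), 86 bases before the stop codon against 89 in SESA2, had 0.356 and 0.211. Cruciferin C (chr4:14088773) had 0.364 and 0.208. Seedling was above silique at the SESA1 site (0.374) and the cruciferin C site (0.501). Of 106 sites of the storage list with a mark in silique and at least 20 reads in silique and seed, 104 were higher in silique. Their medians were 0.150 in silique and 0.0925 in seed. Over all genes the share of such sites was 84.0%, and choosing sites by their mark in silique favours silique. Among flower transcripts, PI had a fraction of 0.880 over 1010 reads at an AGACT of its 3'UTR (chr5:6831326).

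Over genes with at least 3 compared sites, 11630 in number, the mean difference was 0.1 or more in 1665 (14.3%) and -0.1 or less in 833 (7.16%). The largest rises were in genes with few sites, such as AT2G02410 (0.71 over 3 sites) and CDKB2;1 (0.51 over 3 sites, where a site outside the consensus went from 0 to 1). The largest falls were in AT2G31130 (-0.78 over 3 sites), AT3G28460 (-0.66 over 3) and FLD, a histone demethylase homologue of the flowering pathway (-0.62 over 3 sites, of which 2 had motifs of the class "others").

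Genes that changed in methylation showed nearly the same spread of expression change as the rest. Over 11556 genes Spearman's rho of the mean m6A difference with the log2FC was 0.017, a description across genes, which are not independent replicates and share libraries of the same organs. Genes with a mean difference of 0.1 or more had a median log2FC of 0.04, with quartiles of -0.38 and 0.45. Genes at -0.1 or less had a median of -0.07, with quartiles of -0.42 and 0.35. The median mean difference was 0.03 both for genes at least 2-fold higher in silique and for those at least 2-fold lower, and 0.02 for the rest.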

How the data were processed

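Raw read counts per gene and library were deposited by the authors, and the deposited m6A table gives for each site a count of reads (depth), a calibrated fraction and a mark of a call, 1 value per tissue with replicates pooled. The authors' processing used the m6A-SAC-seq pipeline on TAIR10. No aligner is named in the sources used here. The study's text describes a cutoff on the detected fraction and a minimum depth for site detection, and whether the mark follows these was not tested. Poly(A) RNA was captured before library preparation.

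Counts of the 4 input libraries were fitted with edgeR 4.0.16 (filterByExpr, TMM, quasi-likelihood F-test, organ as the only term) in R 4.3.3, and p-values were adjusted by Benjamini-Hochberg over all genes tested. The SE is the absolute log2 fold change divided by the square root of F. CPM are counts over TMM-scaled library sizes, and TPM used the deposited gene lengths. A fold against an organ without reads was set against 3 reads over both of its libraries, and 95% counting intervals are exact binomial and cover counting error only. Counts for the 19264 genes were also simulated with 200 genes changed, a far smaller share than the 64.6% called in the data. There the test recovered 76% of genes lowered and 80% of genes raised by 1 on the log2 scale, and 90% and 100% at 2. Recovery with most genes changed was not tested.

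For m6A no test was run. In the table the column mut_type holds the transcript region and mtype the motif class, and both are reported. Gene names and coordinates of sites were taken from the files, and RefSeq TAIR10.1 gave sequences and stop codons, with 99.6% of mapped transcript positions matching. Of 252 list members 244 were matched, in 18 lists; the members and lists were chosen with earlier results of these data known. Named genes were the 10 largest calls in each direction with a mean CPM of at least 50 in the higher organ and no overlap of libraries, all list members, and for m6A the genes of largest mean difference with at least 3 sites. Alternatives covered normalisation, DESeq2 1.42.0, filters, thresholds, libraries and depth. Replicate numbers were not used as a pairing in the main fit. Same-numbered deviations had r = 0.004 over genes, but they lay near counting noise, so this cannot show whether samples were paired. The tables of the mta mutant were not used. A gene with a site among the largest changes in m6A is not reported here.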

Additional observations from a re-analysis of the deposited data

How the results depend on the processing

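Requiring a change of at least 2-fold left 5627 of 12444 called genes, 3060 higher and 2567 lower, and every other expression alternative stayed within 1.5 times of the counts. DESeq2 called 8899 genes, and upper-quartile factors called 5668 higher and 6844 lower (45.3% higher, against 51.2%) with the median log2FC of all genes at -0.08. Leaving out each library in turn gave 5739 to 5981 higher and 5371 to 5532 lower genes, with a lone library assumed to vary like the other organ, and 182 to 185 called list members against 187. Whether libraries with a shared replicate number were paired is not known (r = 0.00365 between their deviations, which lay near counting noise). With the replicate block 6320 genes were higher and 6009 lower, and none of the 233 named or listed genes changed its call. In the MjDim1-treated libraries the log2FC turned positive for LOX4 (0.0469), LHCB4.1 (0.1051), PSAF (0.0740) and PSAL (0.0423), and with upper-quartile factors that of LHCA3 was -0.0802. The causes were not tested. For m6A, depth of at least 100 gave 7.114% of sites higher and 5.396% lower by 0.2, a mean 3'UTR difference of -0.009788 and 3.389% of genes lower by 0.1. Sites with a mark in silique or flower gave a median difference of 0.03243, a mean 3'UTR difference of -0.02572 and 11.01% of genes lower, and sites with a mark in both 0.002777, 7.276% higher, 5.444% lower and -0.003536 in the 3'UTR. A difference of 0.1 gave 24.2% higher and 16.41% lower, and one of 0.3 gave 6.782% and 5.767%. Among alternatives chosen after seeing the data, GAC sites alone gave 7.617% higher, 4.430% lower and 3.471% of genes lower, and leaving out fractions of exactly 0 or 1 gave 5.882% lower, -0.00512 in the 3'UTR and 3.296% of genes lower. The mean 3'UTR difference stayed negative in each of these, and depth below 100 reads limits single fractions.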
